A study of Mus musculus with 12 samples.

Results

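Expression of 9 genes of B cells and lymphoid follicles (Ms4a1, Cd79a, Cd79b, Pax5, Tnfrsf13c, Cxcr5, Cxcl13, Ccl19 and Ltb) was followed in RNA-seq of mouse oral tumours. The genes were picked by symbol from a table of 55401 genes, and each symbol matched 1 entry. The table gives FPKM, a level scaled to transcript length and to library size. Tumours are described as grown from a single mouse oral cancer line, placed orthotopically in C57BL/6 mice. The line is named MTC-Q1 in the growth label and Q1-2, a luciferase-carrying subline of it, in the sample titles and methods. Treatment began once tumours had reached 100 mm3. The 4 groups had 3 libraries each. Ctrl-IgG received an isotype control labelled IgG1-Fc, and aCSF1R an antibody that blocks the macrophage growth factor receptor CSF1R. IL-10-Fc received recombinant interleukin-10 with an Fc tail. BF10 received the protein of that name, in which human interleukin-10 is attached to the CSF1R antibody of clone AFS98. The number of doses is 6 in one label and 4 in another, and the labels give neither age nor sex, while the methods describe mice several weeks old at purchase. No label says whether the libraries of a group are separate animals, so p-values measure only the spread between these libraries. The design asks what BF10 does to the tumour tissue and whether either component alone does the same.

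B cells carry an antigen receptor that signals through CD79A and CD79B, and they display CD20, the product of Ms4a1, on their surface. Where B cells gather in a follicle, stromal cells release CXCL13, which draws cells bearing CXCR5, while CCL19 and CCL21 draw T cells and dendritic cells through CCR7. Lymphotoxin, made in part from Ltb, is the lymphocyte signal that keeps such stroma and its specialised venules in place.

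BF10 replicates 2 and 3 held nearly the whole B cell set at high levels, and BF10 replicate 1 and the other 9 libraries did not, apart from Pax5, which Ctrl-IgG and aCSF1R also held. CXCL13 transcript departed from this pattern, since it was high in all 3 BF10 libraries, with its top value in replicate 1. Of the 9 genes, 8 had their highest level in BF10 replicate 2, against 12.1% of the 15813 genes tested across the table. In whole tumours, more B cells and more of a transcript per B cell cannot be told apart.

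The libraries also differed in ways that run along the groups. Xist, the X-inactivation RNA, was at 0.01 to 0.04 FPKM in Ctrl-IgG and aCSF1R and at 17.1 to 30.7 in IL-10-Fc and BF10. H2-Ea, an MHC class II gene that C57BL/6 mice are known not to express, was at most 0.27 FPKM in Ctrl-IgG and aCSF1R and 553 to 1727 in the others. Krt18, a keratin of simple epithelium, was at most 0.09 and 294 to 614 FPKM in these respective groups. All groups are labelled with the same line and strain, which leaves the difference in these genes unexplained. The H2-Ea levels of IL-10-Fc and BF10 are at odds with the labelled strain, and the cause was not tested. The treatments and this difference cannot be told apart wherever IL-10-Fc or BF10 is set against Ctrl-IgG or aCSF1R. Setting aCSF1R beside Ctrl-IgG, or BF10 beside IL-10-Fc, stays on one side of it, except that BF10 replicate 3 also held the Y-linked Eif2s3y at 3.29 FPKM, where the other BF10 and IL-10-Fc libraries were at 0 to 0.05. Keratin transcripts were scarce in 3 libraries labelled as oral tumours: Ctrl-IgG replicates 1 and 2 and aCSF1R replicate 3 summed to 0.49 to 0.65 FPKM over 4 simple epithelial genes and to 2.31 to 4.82 over 7 genes of stratified keratinocytes. BF10 replicate 1, Ctrl-IgG replicate 2 and IL-10-Fc replicates 1 and 2 had FPKM sums of 819001 to 976950 and 6.57% to 9.04% mitochondrial transcripts, against 637596 to 701275 and 2.99% to 3.61% in the other 8. Sample titles also carry a number of unstated meaning, which was 5 or more in BF10 replicates 2 and 3 and in replicate 3 of each other group, and 4 or less in BF10 replicate 1 and the rest. BF10 replicate 1 is thus the only BF10 library with a low number, and its difference from the other BF10 libraries cannot be told apart from that number. Replicate 3 of the other groups, with high numbers, held 0.04 to 0.08 FPKM of Ms4a1.

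Ms4a1 (ENSMUSG00000024673, chr19:11249675-11266241, minus strand) marked the contrast most sharply. Its level was 22.6 FPKM in BF10 replicate 2 and 9.57 in replicate 3, but 0.19 in BF10 replicate 1. It was 0.03, 0.04 and 0.04 FPKM in Ctrl-IgG, 0.05, 0.01 and 0.04 in aCSF1R, and 0.41, 0.09 and 0.08 in IL-10-Fc. All BF10 libraries lay above all Ctrl-IgG and aCSF1R libraries, which held for 17.3% and 19.8% of genes tested in these comparisons. BF10 replicate 1, however, lay within the range of IL-10-Fc. With a mean of 10.8 ± 11.3 FPKM (SD, n = 3), the spread of BF10 was as large as its level. Ms4a1 overlaps the gene 4930526L06Rik, and whether fragments were assigned by strand is not given in the sources used here.

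The genes of the receptor's signalling chains moved with it. Cd79a (ENSMUSG00000003379, chr7:24897381-24902197, plus strand) was at 0.27, 51.0 and 29.6 FPKM in BF10 replicates 1 to 3. It was at 1.42, 0.35 and 2.32 FPKM in Ctrl-IgG, at 1.93, 1.82 and 2.95 in aCSF1R, and at 0.32, 0.05 and 0.31 in IL-10-Fc. Cd79a in BF10 replicate 1 therefore sat among the IL-10-Fc libraries and below every Ctrl-IgG and aCSF1R library. Cd79b (ENSMUSG00000040592, chr11:106311341-106314762, minus strand) was at 0.58, 39.1 and 23.2 FPKM in BF10. Its other values were 0.89, 2.08 and 1.75 FPKM in Ctrl-IgG, 0.85, 0.90 and 0.59 in aCSF1R, and 1.38, 0.34 and 0.23 in IL-10-Fc. The chain genes thus had a low but measurable level in tumours where Ms4a1 was close to 0.

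Pax5 (ENSMUSG00000014030, chr4:44524757-44710487, minus strand), the factor that holds cells in the B lineage, had another pattern. Ctrl-IgG libraries had 4.49, 2.59 and 4.00 FPKM and aCSF1R libraries 4.33, 4.2 and 3.02. IL-10-Fc libraries had 0.01, 0.02 and 0.06, and BF10 replicates 1 to 3 had 0.09, 6.30 and 3.28. Of these 6 Ctrl-IgG and aCSF1R libraries, all but Ctrl-IgG replicate 2 and aCSF1R replicate 3 lay above BF10 replicate 3, while their Ms4a1 stayed at or under 0.05 FPKM. Ebf1, which acts with Pax5 in early B cells, was likewise 2.98 to 5.40 FPKM in Ctrl-IgG and aCSF1R and 0.81 to 1.86 in IL-10-Fc. Pax5 overlaps 4 other annotated genes, so its level could hold fragments of those.

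Tnfrsf13c (ENSMUSG00000068105, chr15:82221743-82224369, minus strand) encodes the receptor for the survival factor BAFF, and Cxcr5 (ENSMUSG00000047880, chr9:44511787-44561877, minus strand) the receptor for CXCL13. In BF10, Tnfrsf13c had 0.10, 8.82 and 4.11 FPKM, and no other library exceeded 0.52. Cxcr5 was at 0.05, 3.67 and 1.61 FPKM in BF10 and at most 0.14 elsewhere, with 2 libraries listed at 0. Both followed Ms4a1: after the group means were taken off, Pearson's r of log2(FPKM + 1) with Ms4a1 over 12 libraries was 0.98 for Tnfrsf13c and 0.983 for Cxcr5. These correlations describe shared libraries and rest mainly on the spread within BF10. The gene Bcl9l overlaps Cxcr5.

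Promoter sequence was available for 6 of the 9 genes (RefSeq, GRCm38.p6), in windows of 300 bases around the start. The stretches upstream of the start of Cd79a, chr7:24897247-24897380 (plus strand), and of Tnfrsf13c, chr15:82224381-82224630 (minus strand), are shown because both genes followed Ms4a1 closely. Capitals mark CAGGTG, a hexamer bound by the E proteins that set up the B lineage, on either strand.
Cd79a: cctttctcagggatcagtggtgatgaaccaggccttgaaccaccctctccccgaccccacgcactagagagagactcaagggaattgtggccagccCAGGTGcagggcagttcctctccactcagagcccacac
Tnfrsf13c: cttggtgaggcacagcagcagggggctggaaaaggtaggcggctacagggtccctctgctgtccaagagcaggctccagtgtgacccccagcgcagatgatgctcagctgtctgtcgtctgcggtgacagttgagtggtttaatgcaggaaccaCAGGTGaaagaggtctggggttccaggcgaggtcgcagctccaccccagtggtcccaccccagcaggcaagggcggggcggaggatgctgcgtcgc
CAGGTG lay in 3 of the 6 windows (Cd79a, Tnfrsf13c and Ltb) and in 20.2% of all 32851 promoter windows. The EBF palindrome TCCCNNGGGA was in 0 of the 6, against 0.904% of all windows, and the immunoglobulin octamer ATTTGCAT in 0 of the 6, against 1.74%. A match or its absence describes these letters only.

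Cxcl13 (ENSMUSG00000023078, chr5:95956951-95961068, plus strand), the follicle chemokine, was high in every BF10 library. It reached 64.4, 40.1 and 27.8 FPKM in BF10 replicates 1 to 3, against 17.9, 2.74 and 6.00 in IL-10-Fc. Ctrl-IgG held 0.08, 0.61 and 7.32 FPKM and aCSF1R held 2.07, 3.6 and 0.54. The lowest BF10 library thus lay above the highest library of each other group. Such separation held for 17.3% of genes tested against Ctrl-IgG, 19.8% against aCSF1R and 4.67% against IL-10-Fc. BF10 replicate 1, with the highest Cxcl13 of all, held 0.05 FPKM of its receptor Cxcr5. Within groups Cxcl13 did not run with the B cell genes, with r between -0.158 and 0.124 to the other 8 over 12 libraries.

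Ltb (ENSMUSG00000024399, chr17:35194439-35196320, plus strand), the lymphotoxin beta subunit made by lymphocytes, was present in all 12 libraries. BF10 held 4.90, 29.7 and 19.6 FPKM and IL-10-Fc 8.25, 2.04 and 6.17, so BF10 replicate 1 lay inside the IL-10-Fc range. Ctrl-IgG held 2.65, 1.06 and 1.75 FPKM and aCSF1R 2.69, 2.62 and 1.55, all below every BF10 library. Of the genes tested, 17.3% and 19.8% were separated in this way from Ctrl-IgG and aCSF1R.

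The stretches upstream of the starts of Cxcl13, chr5:95956689-95956938, and Ltb, chr17:35194257-35194438, both on the plus strand, are shown because these were the genes called higher in BF10. Capitals in Ltb mark a kappaB match (GGGANNTTCC, either strand), a sequence of the NF-kappaB family, and capitals in Cxcl13 mark a TATA box (TATAAA), the only searched motif in its window.
Cxcl13: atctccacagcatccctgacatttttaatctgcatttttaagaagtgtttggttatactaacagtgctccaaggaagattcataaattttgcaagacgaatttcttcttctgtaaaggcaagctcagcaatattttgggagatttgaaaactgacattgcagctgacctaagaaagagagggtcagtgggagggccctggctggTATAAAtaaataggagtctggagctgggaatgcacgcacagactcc
Ltb: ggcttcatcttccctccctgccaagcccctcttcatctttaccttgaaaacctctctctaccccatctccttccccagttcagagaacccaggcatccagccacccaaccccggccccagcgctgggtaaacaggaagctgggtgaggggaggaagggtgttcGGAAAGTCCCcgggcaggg
The kappaB match was in 1 of the 6 windows and in 1.47% of all windows, and TATAAA in 1 of the 6 and 13.6% of all.

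Ccl19 (ENSMUSG00000071005, chr4:42754525-42756577, minus strand) was at 0.07, 5.34 and 4.14 FPKM in BF10 replicates 1 to 3. It was 0.22, 0.23 and 1.08 FPKM in Ctrl-IgG, 1.08, 1.21 and 1.01 in aCSF1R, and 0.19, 0.06 and 0 in IL-10-Fc. BF10 replicates 2 and 3 were the highest of the 12, and BF10 replicate 1 was within the IL-10-Fc range. Near-identical copies make this level uncertain: the pseudogene Ccl19-ps3 was listed at 4.61 and 4.76 FPKM in BF10 replicates 2 and 3 and at 0 in BF10 replicate 1. Ccl21a, the other CCR7 ligand and likewise one of several close copies, was at 0.59, 107 and 101 FPKM in BF10, against 0.16 to 25.5 in the other 9 libraries.

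**Figure D1:**
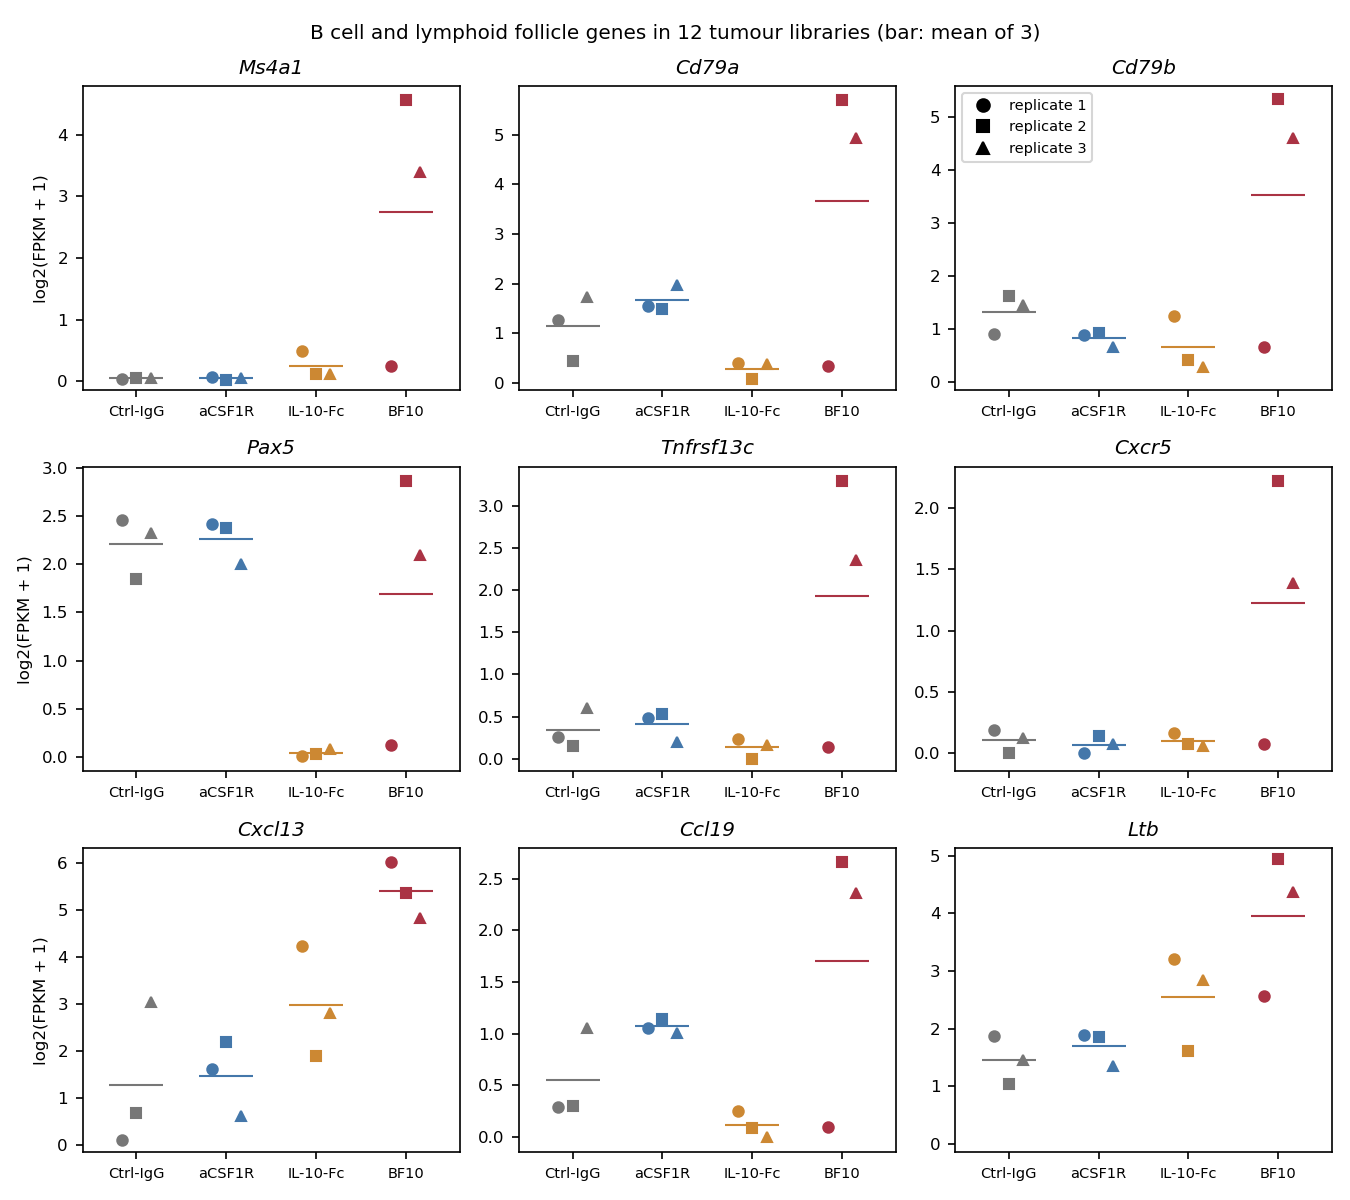
Level of each of the 9 genes as log2(FPKM + 1) in 12 libraries by treatment group; symbols give the replicate and bars the mean of 3. BF10 replicate 1 lies with the low libraries in every panel except Cxcl13, where it is the highest at 64.4 FPKM, and Ltb, where it is above Ctrl-IgG and aCSF1R.

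Tests were run with limma on log2(FPKM + 1) over the 15813 genes that reached 1 FPKM in 3 or more libraries. Calls needed a Benjamini-Hochberg adjusted p under 0.05 and a 1.5-fold difference. Of the 9 genes, 6 entered these tests, and Ms4a1, Tnfrsf13c and Cxcr5 did not, since only 2 libraries reached 1 FPKM. The filter does not ask which group is high, but a gene high in BF10 replicates 2 and 3 alone cannot pass it.

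BF10 against Ctrl-IgG raised 2 of the 6 genes, Cxcl13 and Ltb, in a comparison where 24.9% of all genes tested were called. Cxcl13 was higher by 4.13 ± 0.79 (log2, SE), with an adjusted p of 0.00335 (limma). Ltb was higher by 2.5 ± 0.58, with an adjusted p of 0.00929 (limma). Cd79a and Cd79b differed by 2.51 ± 1.06 and 2.19 ± 0.92, each with an adjusted p of 0.111 in limma. Ccl19 differed by 1.16 ± 0.54 and Pax5 by -0.51 ± 0.54, with adjusted p of 0.145 and 0.546 in limma.

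BF10 against aCSF1R gave the same 2 calls, Cxcl13 at 3.93 ± 0.79 and Ltb at 2.26 ± 0.58 (adjusted p 0.0043 and 0.0157, limma), where 25.0% of all genes were called. Cd79b missed the threshold at 2.7 ± 0.92, with an adjusted p of 0.0538 in limma. IL-10-Fc against Ctrl-IgG gave 1 call, Pax5, which fell by 2.17 ± 0.54 (adjusted p 0.0106, limma), in a comparison with 33.7% of genes called. These comparisons share libraries and cross the Xist and H2-Ea difference.

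On one side of that difference no member was called. In aCSF1R against Ctrl-IgG, 0 of the 6 genes and 0% of all genes were called, with 437 genes at an unadjusted p under 0.05, and the 6 differences ran from -0.51 to 0.53. In BF10 against IL-10-Fc, 0 of the 6 were called where 0.0126% of all genes were, with 828 genes at an unadjusted p under 0.05. All 6 were higher in BF10, by 1.40 ± 0.58 for Ltb to 3.37 ± 1.06 for Cd79a, at unadjusted p of 0.00882 to 0.0345 and an adjusted p of 0.478 for each in limma. A further contrast asked whether the effect of BF10 exceeded the added effects of aCSF1R and IL-10-Fc, each against Ctrl-IgG. This departure was called for 0 of the 6 genes and 0.00632% of all genes, with 412 genes at an unadjusted p under 0.05 in limma. Its values ran from 1.07 ± 0.76 for Ccl19 to 3.38 ± 1.3 for Cd79b, with an adjusted p of 1 for each in limma.

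The 3 genes outside the filter gave no call in a fit with no filter. Ms4a1 was then higher in BF10 than in Ctrl-IgG by 2.69 ± 0.83 with an adjusted p of 0.0657 (limma), and Cxcr5 and Tnfrsf13c by 1.12 ± 0.40 and 1.59 ± 0.62 with 0.108 and 0.136.

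Leaving out 1 library changed these outcomes. Without BF10 replicate 1, which stands apart by its values and whose omission leaves 2 BF10 libraries, BF10 against IL-10-Fc called Cd79a, Cd79b, Pax5 and Ccl19, 4 of the 6, against 0.727% of all genes. The differences were then 5.03 ± 0.38, 4.30 ± 0.35, 2.44 ± 0.29 and 2.40 ± 0.26, with adjusted p from 0.000529 to 0.00464 in limma. That library was set apart by its low levels of these 4 genes, so larger differences and smaller errors follow from leaving it out. Calls made without it, here and below, are therefore no test of a BF10 effect. The same omission gave 5 of the 6 against Ctrl-IgG (23.6% of all genes) and 5 against aCSF1R (21.4%), namely every tested gene but Pax5. The departure was then called for Cd79a and Cd79b, 2 of the 6, against 0.177% of all genes. Cxcl13 and Ltb against IL-10-Fc stayed short of the threshold, at 2.12 ± 0.89 and 2.10 ± 0.46 (adjusted p 0.182 and 0.0862, limma).

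**Figure D2:**
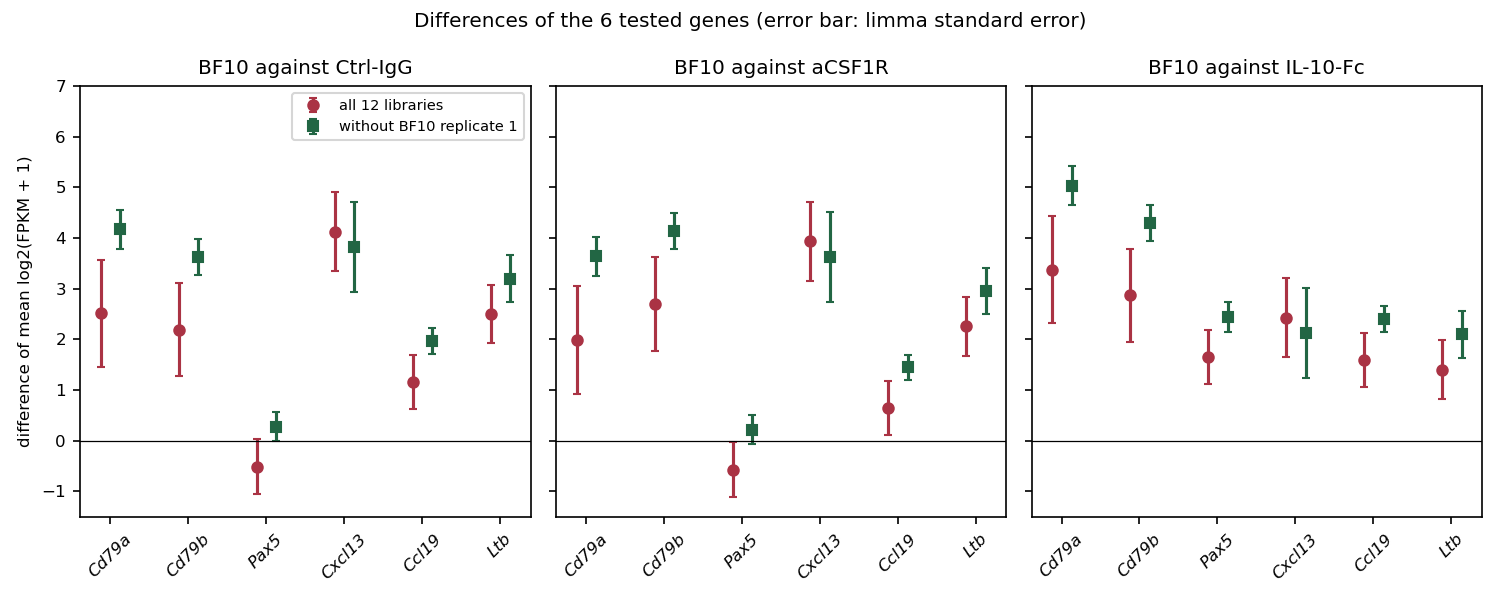
Differences of mean log2(FPKM + 1) between BF10 and each other group for the 6 tested genes, with limma standard errors, from all 12 libraries (circles) and without BF10 replicate 1 (squares). Cd79a, Cd79b, Ccl19 and Pax5 move up and their errors shrink without that library, which was set apart by its low levels of these genes. Cxcl13 changes from 4.13 to 3.82 against Ctrl-IgG.

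Most other genes of the B lineage were highest in the library where Ms4a1 was. In a list of 17, 14 were highest in BF10 replicate 2, and the other 3 (Cd72, Ebf1 and Cd180) in a Ctrl-IgG library. Over all genes tested, 12.1% were highest in BF10 replicate 2. Pou2af1, the B cell coactivator of octamer factors, was at 39.3 and 20.1 FPKM in BF10 replicates 2 and 3 and at most 0.75 elsewhere. Cr2 and Fcer2a, receptors of mature follicular B cells, were at 13.7 and 16.8 FPKM in BF10 replicate 2 and at most 0.43 and 0.10 in the libraries outside BF10. Only 7 of the 17 passed the filter. Of these, Btk, the receptor's kinase, rose in BF10 against Ctrl-IgG by 1.23 ± 0.36 (adjusted p 0.0281, limma) and against aCSF1R by 1.80 ± 0.36 (0.00419). Blnk, an adaptor of the receptor, ran like Pax5, with 4.47 to 6.42 FPKM in Ctrl-IgG and aCSF1R, 0.99 to 1.49 in IL-10-Fc and 1.66 in BF10 replicate 1. Blnk, Ebf1 and Cd180 fell in IL-10-Fc against Ctrl-IgG by 1.43, 1.35 and 1.43, where 33.7% of all genes were called. In BF10 against IL-10-Fc 0 of the 7 were called, against 0.0126% of all genes, with 6 at an unadjusted p under 0.05 in limma. Without the filter on low values, Btk lost its call against Ctrl-IgG and Blnk its call in IL-10-Fc (adjusted p 0.0585 and 0.0833, limma). Without BF10 replicate 1, BF10 against IL-10-Fc called Cd22, Bank1 and Blnk, 3 of the 7, against 0.727% of all genes. This count carries the same limit, since that library was set apart by its low B cell genes. The median difference of the list was 1.39 in BF10 against IL-10-Fc, where that of all genes was 0.338.

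Germinal centre genes followed the same order of libraries in part. Of 8, 7 were highest in BF10 replicate 2, against 12.1% of all genes tested. The filter was passed by 4, of which 0 were called in any of the 6 comparisons in limma, where 0% to 33.7% of all genes were. At an unadjusted p under 0.05 these 4 gave 0 genes in each comparison. Mef2b was at 0.21, 6.75 and 2.29 FPKM in BF10 replicates 1 to 3 and Rgs13 at 0.03, 2.71 and 0.72. Il21r was at 9.21 FPKM in BF10 replicate 2 and at most 3.27 outside BF10. Bcl6 and S1pr2 were broader, at 9.29 and 14.8 FPKM in BF10 replicate 2 and 7.54 and 12.7 in IL-10-Fc replicate 3. Mybl1 was highest in IL-10-Fc replicate 2.

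Among 8 genes of follicular helper T cells, 6 were highest in BF10 replicate 2, against 12.1% of all genes tested. Btla, an inhibitory receptor shared by B and T cells, was at 0.78, 14.0 and 8.86 FPKM in BF10 against 0.19 to 1.58 elsewhere, and rose in BF10 by 2.21 ± 0.61 against Ctrl-IgG and 2.22 ± 0.61 against aCSF1R (adjusted p 0.022 and 0.0216, limma). Without the filter the first was no longer called (adjusted p 0.0519, limma). Only IL-10-Fc replicate 1 and BF10 replicates 2 and 3 reached 1 FPKM of Btla. It thus passed the filter only through BF10, the group where it is high. Il21, the helper cytokine, stayed at or below 0.17 FPKM in all 12 libraries and Cd40lg at or below 0.66.

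Of the homeostatic chemokine genes 7 of 11, and of the venule genes 5 of 6, were highest in BF10 replicate 2, against 12.1% of all genes tested. Glycam1, the L-selectin ligand of high endothelial venules, was at 0.73, 95.4 and 49.6 FPKM in BF10, at 4.83, 0.63 and 1.23 in IL-10-Fc, and at most 0.32 in the other 6. It was called in BF10 against Ctrl-IgG and against aCSF1R, but without the filter neither call held (adjusted p 0.0528 and 0.0519, limma). Glycam1 passed the filter only through BF10, the group where it is high, since too few other libraries reached 1 FPKM. Chst2, a sulfotransferase that modifies such ligands, rose in the same comparisons by 1.93 and 1.40 (log2), and against aCSF1R its call too was lost without the filter. Chst2 was also called higher in IL-10-Fc against Ctrl-IgG, with 7.96 FPKM in IL-10-Fc replicate 3 and at most 7.99 in BF10. Of 6 venule genes 3 passed the filter. In BF10 against IL-10-Fc, where 0.0126% of all genes were called, 0 of the 3 were in limma, with 1 at an unadjusted p under 0.05. In the homeostatic chemokine list, 7 of 11 genes passed the filter. Cxcr4 and Gpr183, both guidance receptors of B cells, rose in BF10 against Ctrl-IgG and aCSF1R. Gpr183 was called higher in IL-10-Fc against Ctrl-IgG too, at 2.44 to 3.57 FPKM in IL-10-Fc and 2.60 in BF10 replicate 1. Cxcl12 rose against Ctrl-IgG by 2.34 ± 0.61 and differed from aCSF1R by 1.60 ± 0.61 (adjusted p 0.0165 and 0.0787, limma). In BF10 against IL-10-Fc 0 of the 7 were called, against 0.0126% of all genes, with 3 at an unadjusted p under 0.05 in limma. Ccr7, the receptor for CCL19 and CCL21, was at 0.56, 6.41 and 4.88 FPKM in BF10 and at 0.12 to 0.78 in IL-10-Fc.

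Stromal genes shared the order of libraries only in part. Among BF10 libraries, Pdgfra, Pdgfrb and Bst1 were lowest in replicate 1, with Pdgfrb at 5.20, 20.13 and 17.65 FPKM in replicates 1 to 3. Il7, Vcam1 and Il33 were instead highest in BF10 replicate 1, and Pdpn was lowest in replicate 2. Of 7 reticular stroma genes, 1 (Il7) was highest in BF10 replicate 1, 1 (Bst1) in replicate 3 and 0 in replicate 2. Pdpn, Bst1 and Il33 rose in BF10 and in IL-10-Fc against Ctrl-IgG, though the call of Bst1 in IL-10-Fc was lost without the filter (adjusted p 0.0647, limma). Vcam1 was called higher in IL-10-Fc only. In these 2 comparisons 24.9% and 33.7% of all genes were called. In BF10 against IL-10-Fc 0 of the 7 were called, against 0.0126% of all genes, with 0 at an unadjusted p under 0.05 in limma.

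Tnfsf13b, which encodes BAFF, ranged from 2.90 to 8.62 FPKM and was called in none of the 6 comparisons. Tnfrsf13b, another receptor of this family, rose in BF10 against Ctrl-IgG by 1.46 ± 0.30 (adjusted p 0.00459, limma) and against aCSF1R by 1.89 ± 0.30 (0.00113). Ltbr, the lymphotoxin beta receptor, ran from 11.8 to 39.9 FPKM. Of 9 tested genes of the lymphotoxin and alternative NF-kappaB list, 2 (Tnfsf11 and Birc3) were called in BF10 against Ctrl-IgG, both higher, and in IL-10-Fc against Ctrl-IgG the same 2 were, where 24.9% and 33.7% of all genes were called. Without the filter Tnfsf11 lost both calls (adjusted p 0.105 and 0.0821, limma), and it was not called in BF10 against Ctrl-IgG without BF10 replicate 1.

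**Figure D3:**
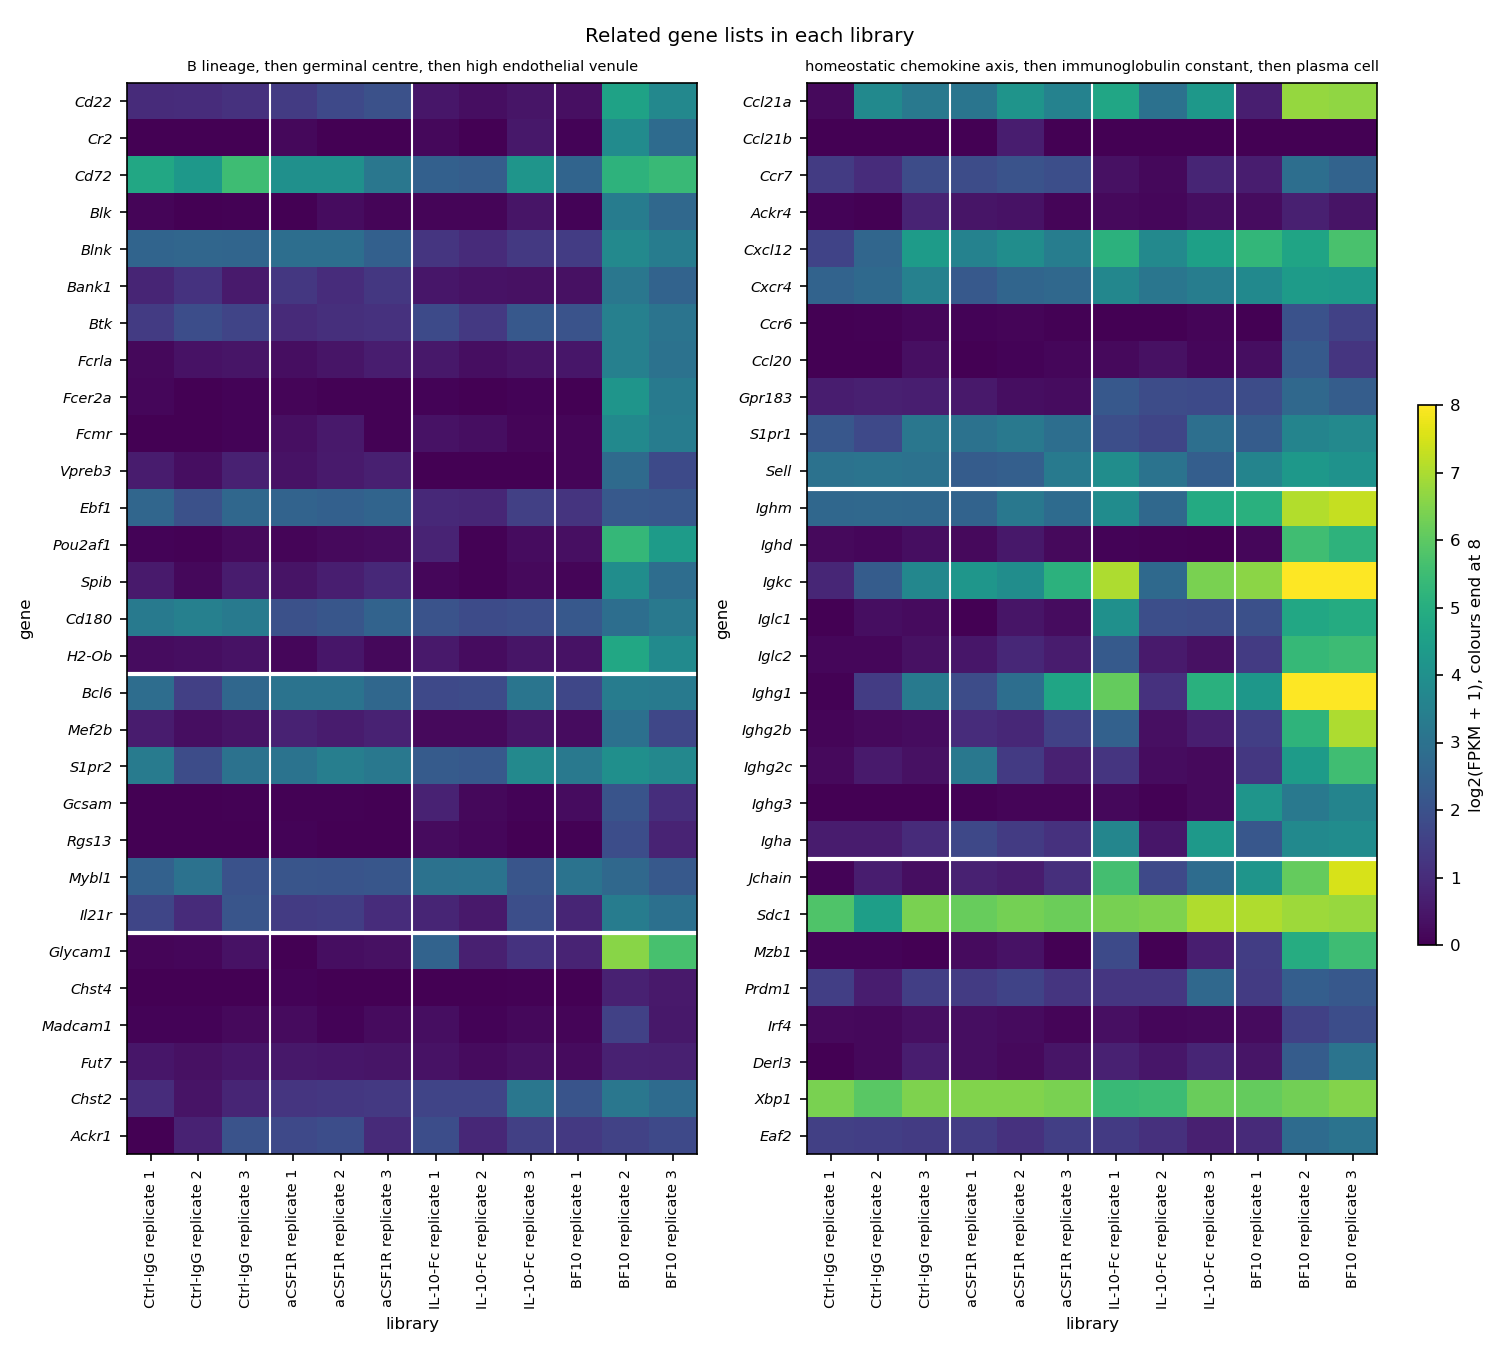
Levels of related gene lists as log2(FPKM + 1), genes in rows and the 12 libraries in columns, with white lines between lists and between groups; colours end at 8, and some listed genes are not drawn. Most B lineage genes, some germinal centre genes and Glycam1 stand out in BF10 replicates 2 and 3, while Cxcl12, Sdc1 and Xbp1 do not follow that order.

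BF10 replicates 2 and 3 differed from each other in which end of the B lineage they held more of. All 9 genes were higher in replicate 2, from 1.29-fold for Ccl19 to 2.37-fold for Ms4a1, where 44.3% of all genes tested were higher in replicate 2. The 9 genes had a median difference of 0.76 (log2(FPKM + 1), replicate 2 minus replicate 3), the 17 B lineage genes one of 0.65 and the 8 germinal centre genes one of 0.73, against -0.03 over all genes tested. Antibody genes ran the other way, since 9 of 10 constant region genes and 6 of 8 plasma cell genes were higher in replicate 3. Ighg1 was at 463 FPKM in replicate 2 and 1579 in replicate 3, and Jchain, the joining chain of secreted antibodies, at 67.7 and 181. Ighd, the constant region of naive B cells, was the exception at 46.0 and 34.8. With 1 library each, these differences have no replicate check.

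**Figure D4:**
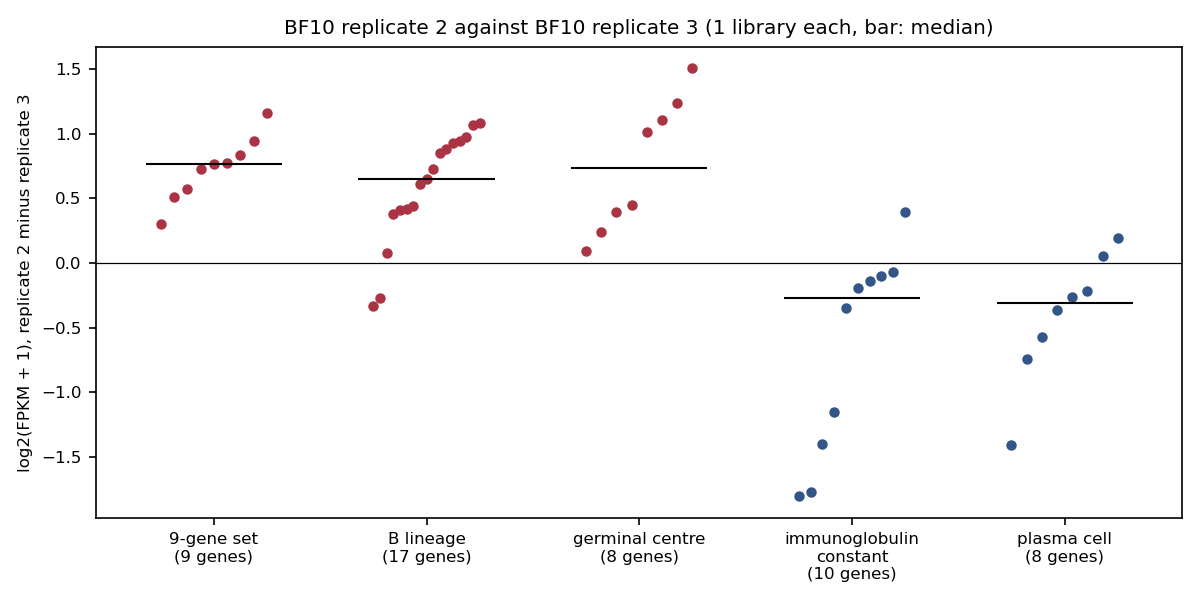
Difference of log2(FPKM + 1) between BF10 replicate 2 and BF10 replicate 3 for each gene of 5 lists, with bars at the median; points above 0 are higher in replicate 2. The 9 genes lie between 0.30 and 1.16, while most immunoglobulin constant and plasma cell genes lie below 0.

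BF10 replicate 1 was not empty of antibody transcripts. It held Igkc at 96.6 FPKM and Jchain at 17.1, levels within the IL-10-Fc range of both genes, while Ms4a1 and Ighd were at 0.19 and 0.11. Ighg3 had 17.0, 8.51 and 11.1 FPKM in BF10, where no other library exceeded 0.14. Ighg3 passed the filter only through the 3 BF10 libraries, the group where it is high. It was called in BF10 against IL-10-Fc at 3.54 ± 0.22 and for the departure at 3.46 ± 0.31, with adjusted p of 9.33e-05 and 0.00422 in limma, and of 0.000669 and 0.0108 with no filter. In BF10 against Ctrl-IgG, where 24.9% of all genes were called, all 9 tested constant region genes rose. Ighg2c and Igha lost their calls without the filter (adjusted p 0.0504 and 0.0871, limma). Iglc2, like Ighg3, passed the filter only through BF10. In BF10 against IL-10-Fc 1 of the 9 rose, where 0.0126% of all genes were called.

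By likeness within groups, the genes nearest to the mean of Ms4a1, Cd79a and Cd79b were Cd22 (r = 0.988), Btla (0.98) and Glycam1 (0.98), then Dennd5b, Igkv14-111, Tspan32, Igkv12-46, Il16, Blnk and Bank1 (0.976 to 0.956). Nearest to Cxcl13 were Endog (0.964), Sfrp4, Bik, Fndc10 and Fbln5, none of which reached 9 FPKM, and nearest to Ccl19 were Dennd5b (0.981), Sit1, Cd6, Slco2b1 and Igkv14-111. Each r is over 12 libraries that share depth and preparation, and genes are not independent of each other.

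Markers of other cells moved with the B cell genes in part. T cell genes summed to 133 and 108 FPKM in BF10 replicates 2 and 3, 59.6 in BF10 replicate 1 and 31.7 to 48.8 in the other 9. Of these genes 8 of 10 were highest in BF10 replicate 2, against 12.1% of all genes tested. Endothelial genes summed to 51.3 and 57.4 FPKM in BF10 replicates 2 and 3, 22.9 in BF10 replicate 1 and 13.3 to 46.3 in the other 9. All 5 of 5 were highest in BF10 replicate 3, against 4.83% of all genes tested. Skeletal muscle genes summed to 101 FPKM in BF10 replicate 3 and 11.6 in replicate 2, far below the 603 to 984 of Ctrl-IgG replicate 3 and aCSF1R replicates 1 and 2, which also held 1370 to 1716 FPKM of stratified keratinocyte genes. Muscle genes summed to 6.75 to 10.6 FPKM in IL-10-Fc, and salivary gland genes to at most 8.03 in any library, with Smgc at 0 in all 12. Csf1r was at 79.1 and 67.0 FPKM in BF10 replicates 2 and 3 and 13.1 in replicate 1, against 48.6 in IL-10-Fc replicate 3. In BF10 against IL-10-Fc, where 0.0126% of all genes were called, 0 of 9 tested T cell genes were (7 at an unadjusted p under 0.05, limma). Without BF10 replicate 1, the library set apart by its low B cell genes, 4 of the 9 were called, against 0.727% of all genes. The 8 macrophage genes summed to 2005 to 2501 FPKM in BF10, 1389 to 3384 in IL-10-Fc, 347 to 378 in aCSF1R and 482 to 976 in Ctrl-IgG, so BF10 and IL-10-Fc overlapped. The part of these cell types in the B cell result was not tested. IL-10-Fc replicate 3, which resembled BF10 replicates 2 and 3 in FPKM sum (655855) and mitochondrial share (3.04%), held 0.08 FPKM of Ms4a1 and 0.31 of Cd79a. Fits with the log2 FPKM sum as covariate changed some calls and are given with the processing alternatives. Whether mitochondrial share bears on the B cell genes was not tested.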

How the data were processed

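Whole-tumour RNA from 12 libraries in 4 groups of 3 was analysed; groups came from the treatment labels, and replicate numbers, given in sample order, carry no pairing. Strand-preserving mRNA libraries were sequenced by the authors on an Illumina instrument and aligned to GRCm38; their processing notes name STAR 2.7.5a, RSEM 1.3.3 and DESeq2 1.30.0. The authors deposited FPKM values with 2 decimals; their methods add scaling to equal library size and a log2 step, which these unlogged values with unequal sums do not carry. Their 4 tables of DESeq2 fold changes and p-values were not used. FPKM hold no counts, so no count model, interval or absolute depth is given; steps between low values were clear in 6 of 11 libraries, where 1 fragment was worth 0.844 to 1.05 of its FPKM in Ctrl-IgG replicate 1. On log2(FPKM + 1), differences of weakly expressed genes come out too small.

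All comparisons used limma 3.58.1 in R 4.3.3 (eBayes with a trend), which fitted all 12 libraries in 1 model for 6 comparisons, with Benjamini-Hochberg adjustment over 15813 genes, and was tested on simulated data. The 9 genes, the related lists and the tests were chosen with earlier results of these data known. Named list genes were those called in at least 1 comparison, or at most the first 3 of their list, and others were named after their values were seen. Some genes of the lists are counted but not reported here by name. Likeness was Pearson's r of log2(FPKM + 1) after subtracting group means, without predicted genes. Positions are from GENCODE M21, which held 99.5% of the gene identifiers. Alternatives were a pseudocount of 0.1, no filter, 3 scalings, 2 covariates, fits of only the groups compared, and leaving out each library.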

Additional observations from a re-analysis of the deposited data

How the results depend on the processing

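No paired analysis was possible because the replicate numbers follow sample order and tie no libraries together. The first number of the sample titles recurs across treatments only in part. A term for 5 or more against 4 or less left the counts of the 6 tested genes called as they were in all 6 comparisons. The number of the 6 tested genes called in IL-10-Fc against Ctrl-IgG went from 1 to 2 with median-of-ratios scaling, with quantile normalization and with the log2 FPKM sum as covariate, each adding Ltb. That covariate gave 4 of the 6 for BF10 against aCSF1R. Shares of all genes called in these alternative fits are not reported here. In the main fit they were 33.7% and 25.0% for these 2 comparisons. Leaving out 1 library at a time gave 1 to 2 calls for IL-10-Fc against Ctrl-IgG (2 without Ctrl-IgG replicate 3, adding Cxcl13), 2 to 5 for BF10 against Ctrl-IgG, 0 to 4 for BF10 against IL-10-Fc, 1 to 5 for BF10 against aCSF1R and 0 to 2 for the departure. Each upper end but the first is without BF10 replicate 1, and shares of all genes are given above only for fits without that library. In BF10 against aCSF1R, omitting replicate 3 of aCSF1R, or replicate 2 or 3 of BF10, raised the adjusted p of Ltb to 0.0537 to 0.0673 and left 1 call. The cause was not tested.

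Uncalled differences changed sign. In aCSF1R against Ctrl-IgG, Pax5 was -0.0383, -0.10 and -0.17 with median-of-ratios scaling, quantile normalization and the covariate, Cxcl13 -0.000675 with quantile normalization and Ltb -0.0158 with the covariate. Cd79a in IL-10-Fc against Ctrl-IgG was 0.0728 with the covariate. With 1 library left out, aCSF1R against Ctrl-IgG ran from -0.39 to 1.08 for Cxcl13 and from -0.12 to 0.19 for Pax5, and Pax5 ran from -1.10 to 0.28 in BF10 against Ctrl-IgG and from -1.16 to 0.22 in BF10 against aCSF1R. Among the other alternatives, counts of the 9 genes stayed within 1.5 times.

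The median difference of all genes depended on scaling: in IL-10-Fc against Ctrl-IgG it was -0.391 as deposited, 0.014 with median-of-ratios scaling and -0.579 rescaled to equal sums. Without BF10 replicate 1, list counts were added after seeing the data.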
